A study of Mus musculus with 8 samples.

Results

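The genes described here were 10 transcripts by which GABAergic interneurons and peptide-expressing cells of the hippocampus are commonly told apart: Gad1, Gad2, Pvalb, Sst, Npy, Vip, Cck, Tac1, Penk and Reln. All array probes whose accession belonged to 1 of these genes were taken, which gave 11 probes (2 for Pvalb and 1 for each of the other 9 genes). They stood for 10 of the 19755 genes that could be named on the array. Full hippocampi had been dissected by hand from wild type C57BL/6J mice that received no treatment and stayed in their home cage until 3 months (3M) or 29 months (29M) of age. RNA of 4 samples per age was labelled with Cy3 and hybridised to 1-colour microarrays, 1 array for each sample, in a cohort separate from the sequenced mice of the same study. The comparison asked which transcripts differ in abundance between young adult and very old mice.

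GABAergic interneurons are the inhibitory neurons of the hippocampal circuit. They make GABA from glutamate with the glutamic acid decarboxylases GAD67 (Gad1) and GAD65 (Gad2) and fall into subtypes that carry parvalbumin, somatostatin, neuropeptide Y, vasoactive intestinal peptide, cholecystokinin or reelin. Neuropeptides are cut from larger precursors, stored in dense-core vesicles and act on G protein-coupled receptors. Several of these genes are not restricted to interneurons: Cck is also made by pyramidal neurons and Penk by granule cells. In whole tissue, fewer cells of a type and less RNA per cell cannot be told apart.

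Several neuropeptide genes are textbook targets of cAMP signalling, so the bases just before their start sites are shown for Sst, whose promoter holds the full cAMP response element, for Cck and Vip, which hold shorter or altered forms, and for Npy, the member with the lowest p-value and with none of the motifs searched. Each line gives the 120 bases upstream of the start site, 5′ to 3′ on the strand of the gene, from RefSeq (GRCm38.p6). Capitals mark the motif matches.
Sst (chr16:23890845-23890964, minus strand): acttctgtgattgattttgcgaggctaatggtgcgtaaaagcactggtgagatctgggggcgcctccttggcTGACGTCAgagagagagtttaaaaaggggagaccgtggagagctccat
Cck (chr9:121495695-121495814, minus strand): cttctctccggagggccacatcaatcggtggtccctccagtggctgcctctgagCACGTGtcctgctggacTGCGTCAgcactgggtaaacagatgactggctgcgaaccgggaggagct
Vip (chr10:5639098-5639217, plus strand): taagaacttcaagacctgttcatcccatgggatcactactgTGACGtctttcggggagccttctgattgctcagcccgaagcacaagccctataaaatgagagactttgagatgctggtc
Npy (chr6:49822590-49822709, plus strand): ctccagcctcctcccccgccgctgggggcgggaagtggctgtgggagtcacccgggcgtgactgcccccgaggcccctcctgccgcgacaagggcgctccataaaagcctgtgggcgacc
The motifs searched, on both strands of windows of 300 bases (250 before and 50 after the start site), were the cAMP response element TGACGTCA, its core TGACG, the altered form TGCGTCA and the E-box CACGTG. The core lies inside the full element, and its reverse complement lies inside TGCGTCA. Windows were found for 9 of the 10 genes and not for Penk.

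The full element was present in the window of Sst, where it began 48 bases before the start site, and in 1.79% of all 32851 promoter windows. The core was found in Sst, Cck, Vip, Tac1 and Gad2 and in 20.8% of all windows. Cck held TGCGTCA 49 bases and an E-box 66 bases before its start. TGCGTCA was also found in Tac1, and in 2.12% of all windows. The E-box was found in Cck, Tac1 and Reln, and in 7.15% of all windows. These matches describe letters in the sequence and not binding.

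All 11 probes were well above background on all 8 arrays, and no spot on the arrays was saturated. Levels are given as normalized log2 intensity, in which a difference of 1 is a doubling. Since each probe binds with its own strength, levels were compared between arrays and not between genes. A probe was called changed at an adjusted p under 0.1 (limma, Benjamini-Hochberg over all probes) together with an absolute log2 difference of at least 0.5. None of the 11 probes was called, while 772 of the 39408 probes tested on the array were (1.96%, with 1.21% higher and 0.751% lower in 29M), a share at which 0.215 of 11 probes would be called. At an unadjusted p under 0.05 there was 1 of the 11 (9.09%), Npy, against 17.0% of all probes. By value alone 6 probes were higher and 5 lower in 29M. The median difference of the members was 0.00, and that over 19746 genes was 0.01. P-values here set the difference between the age groups against the spread between these samples, which limma moderates over all probes. Precision is limited by the number of arrays.

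**Figure D1:**
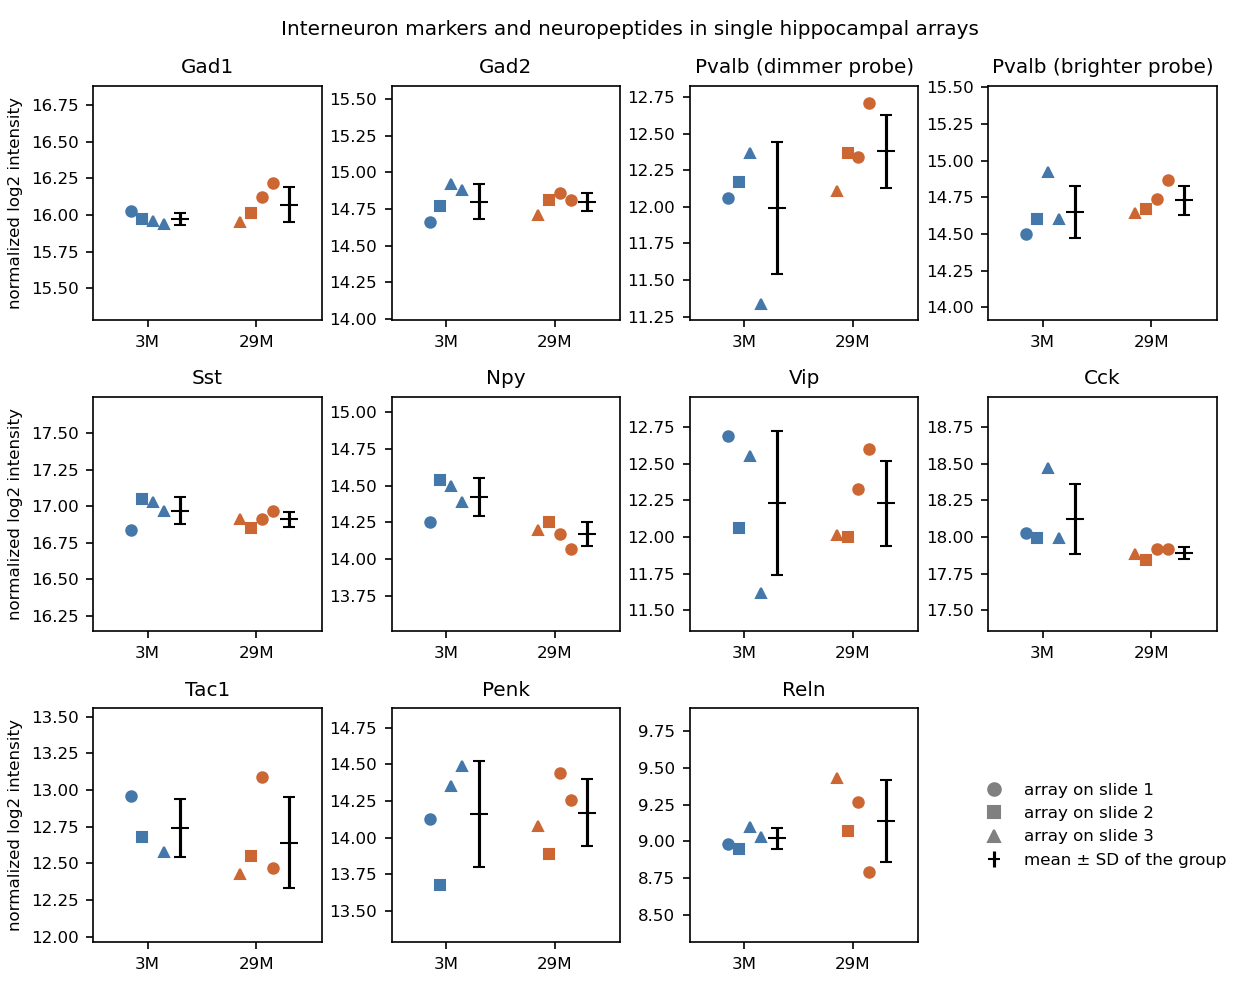
Normalized log2 intensity (vertical axis, 1.6 log2 units in every panel) of each member probe on the 4 arrays of 3M and the 4 of 29M, with the mean ± SD of each group beside the points and the slide of each array shown by the marker. The points of the groups overlap in every panel except that of Cck, where the 4 arrays of 3M lie above the 4 of 29M.

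Gad1 and Gad2, the enzymes that make GABA, had nearly the same level at both ages. For Gad1 (probe A_52_P144310) replicates 1 to 4 gave 16.03, 15.97, 15.96 and 15.94 in 3M and 15.95, 16.01, 16.12 and 16.22 in 29M. Replicates 3 and 4 of 29M were above every array of 3M, and the other 2 lay within the range of 3M. The log2 difference of Gad1 was 0.10 (SE 0.08, 95% interval -0.08 to 0.28, limma adjusted p 0.57). For Gad2 (probe A_51_P495462) the values were 14.66, 14.77, 14.92 and 14.88 in 3M and 14.71, 14.81, 14.86 and 14.81 in 29M. The 29M arrays of Gad2 all fell inside the range of 3M. The 29M level was 0.997-fold that of 3M (95% interval 0.877 to 1.13, limma adjusted p 0.984). For both genes the interval stayed below a log2 difference of 0.5 in either direction.

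Pvalb encodes parvalbumin, the calcium-binding protein of fast-spiking basket and axo-axonic cells, and was measured by 2 probes with different precision. On the brighter one (A_55_P2114437) the arrays gave 14.50, 14.60, 14.92 and 14.60 in 3M and 14.64, 14.67, 14.74 and 14.87 in 29M. The highest array was replicate 3 of 3M, and the groups overlapped. The log2 difference was 0.07 (SE 0.10, 95% interval -0.16 to 0.31, limma adjusted p 0.77). On the dimmer one (A_55_P2059040) the values were 12.06, 12.17, 12.37 and 11.34 in 3M and 12.11, 12.37, 12.34 and 12.71 in 29M. Replicate 4 of 3M lay well below the rest, and all 4 arrays of 29M were above the mean of 3M. This probe gave the largest difference among the members, 0.40 (SE 0.21, 95% interval -0.08 to 0.88, limma adjusted p 0.387). At its standard error a difference of 0.82 would have been needed for a call, more than the difference seen.

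Sst encodes somatostatin, the peptide of the dendrite-targeting interneurons of stratum oriens and the hilus. Its probe (A_51_P262489) was present in 10 spots on each array, whose SD within an array was between 0.075 and 0.209 on the log2 scale. Averaged over spots, the arrays gave 16.84, 17.05, 17.03 and 16.97 in 3M and 16.91, 16.85, 16.91 and 16.97 in 29M (1 outlying spot was left out in replicate 2 of 3M). The lowest array was replicate 1 of 3M, and the 29M arrays lay inside the range of 3M. The log2 difference of Sst was -0.06 (SE 0.08, 95% interval -0.23 to 0.11, limma adjusted p 0.734), or 0.959-fold (0.852 to 1.08).

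Npy encodes neuropeptide Y, made by several interneuron subtypes, and it had the lowest p-value of the members. The arrays (probe A_51_P454873) gave 14.25, 14.54, 14.50 and 14.39 in 3M and 14.20, 14.25, 14.17 and 14.07 in 29M. All 4 arrays of 29M lay below the 3M mean of 14.42 ± 0.13 (SD, n = 4), and the groups met at 14.25, the value of replicate 1 of 3M and of replicate 2 of 29M. The mean of 29M was 14.17 ± 0.08 (SD, n = 4). The log2 difference was -0.25 (SE 0.09, 95% interval -0.45 to -0.05), which is 0.841-fold (0.734 to 0.963). Its limma p was 0.0177 before and 0.192 after adjustment over all probes, so Npy was not called. The end of the interval farther from 0 also fell short of the 0.5 required. Before normalization, the median spot intensities of Npy were 19600, 23800, 24300 and 20500 scanner units in 3M and 18800, 20900, 18100 and 16300 in 29M, and the groups overlapped there too. Without replicate 1 of 3M, for which the scanner software asked for an evaluation, the difference was -0.30 (limma adjusted p 0.0857). It was -0.18 with the 75th percentile scaling and -0.16 with variance stabilisation of the processed signal (unadjusted limma p 0.0792 and 0.0827). Without replicate 2 of 3M it was -0.21 (unadjusted limma p 0.0561).

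Vip encodes vasoactive intestinal peptide, the marker of interneurons that largely inhibit other interneurons. Its arrays (probe A_51_P368313) gave 12.69, 12.06, 12.55 and 11.62 in 3M and 12.01, 12, 12.33 and 12.60 in 29M. Both the highest and the lowest value belonged to 3M, and the groups overlapped fully. The 29M level was 1.0-fold that of 3M, with a 95% interval from 0.697 to 1.45 (limma adjusted p 0.994). With a log2 SE of 0.23 a difference of 0.90 would have been needed for a call, and smaller differences of Vip could not have been called with these arrays.

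Cck encodes cholecystokinin, carried by basket cells that also express the cannabinoid receptor Cnr1 and by pyramidal neurons. Its arrays (probe A_55_P1977431) gave 18.03, 17.99, 18.47 and 17.99 in 3M and 17.88, 17.84, 17.92 and 17.92 in 29M. Every 3M array lay above every 29M array, the only member probe of which this was true (9.09% of 11 against 11.1% of all probes, and 5.55% of all probes with 29M as the lower group). Before normalization the groups of Cck overlapped. Median spot intensity was then 249000 scanner units in replicate 4 of 3M and 251000 in replicate 2 of 29M. Replicate 3 of 3M stood far above the rest of its group. The means were 18.12 ± 0.24 in 3M and 17.89 ± 0.04 in 29M (SD, n = 4 each), and the log2 difference was -0.23 (SE 0.11, 95% interval -0.49 to 0.03, limma adjusted p 0.346). Without replicate 3 of 3M it was -0.11 (limma adjusted p 0.527). That array also had the highest mean of the neuronal marker list, 16.31 against 16.15 to 16.20 on the other 7, and of the excitatory neuron list, 13.99 against 13.42 to 13.83. Its mean of the choroid plexus list was the lowest, 13.63 against 14.19 to 14.79. The part of tissue makeup in the value of Cck on this array was not tested.

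Tac1 and Penk encode the precursors of substance P and of the enkephalins. The spot of Tac1 (probe A_55_P1954693) in replicate 3 of 3M was marked as an outlier and left out of the fit, so 3M had 3 arrays with 12.96, 12.68 and 12.58. The 29M arrays gave 12.43, 12.55, 13.09 and 12.47. Replicate 3 of 29M was the highest of the 7, and the other 3 arrays of 29M lay below the 3 of 3M. The log2 difference of Tac1 was -0.11 (SE 0.17, 95% interval -0.50 to 0.29, limma adjusted p 0.808), and without replicate 3 of 29M it was -0.26 (limma adjusted p 0.305). Penk (probe A_55_P2035946) gave 14.13, 13.68, 14.35 and 14.49 in 3M and 14.08, 13.89, 14.44 and 14.26 in 29M. Its lowest and its highest array were both from 3M. The log2 difference of Penk was 0.01 (SE 0.18, 95% interval -0.40 to 0.42, limma adjusted p 0.988). Both transcripts are abundant in the striatum, and the mean level of the 9 striatal markers, all above background, was 10.46 to 10.53 in 3M and 10.23 to 10.42 in 29M. None of these 9 was called (2 at an unadjusted limma p under 0.05), and their part in the values of Tac1 and Penk was not tested.

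Reln encodes reelin, an extracellular matrix glycoprotein secreted in the adult hippocampus by interneurons and by remaining Cajal-Retzius cells. Its arrays (probe A_66_P108810) gave 8.98, 8.95, 9.10 and 9.03 in 3M and 9.43, 9.07, 9.27 and 8.79 in 29M. The 4 arrays of 3M lay close together, with an SD of 0.07, while those of 29M spread on both sides of them, with an SD of 0.28. The log2 difference was 0.12 (SE 0.13, 95% interval -0.17 to 0.42, limma adjusted p 0.676). It was 0.24 without replicate 4 of 29M (limma adjusted p 0.344) and 0.03 without replicate 1 of 29M (0.952). The mean of the Cajal-Retzius marker list, which holds Reln itself, ranged from 9.17 to 9.83 in 3M and from 9.18 to 9.61 in 29M, with 0 of 8 genes called by limma and 2 at an unadjusted p under 0.05.

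**Figure D2:**
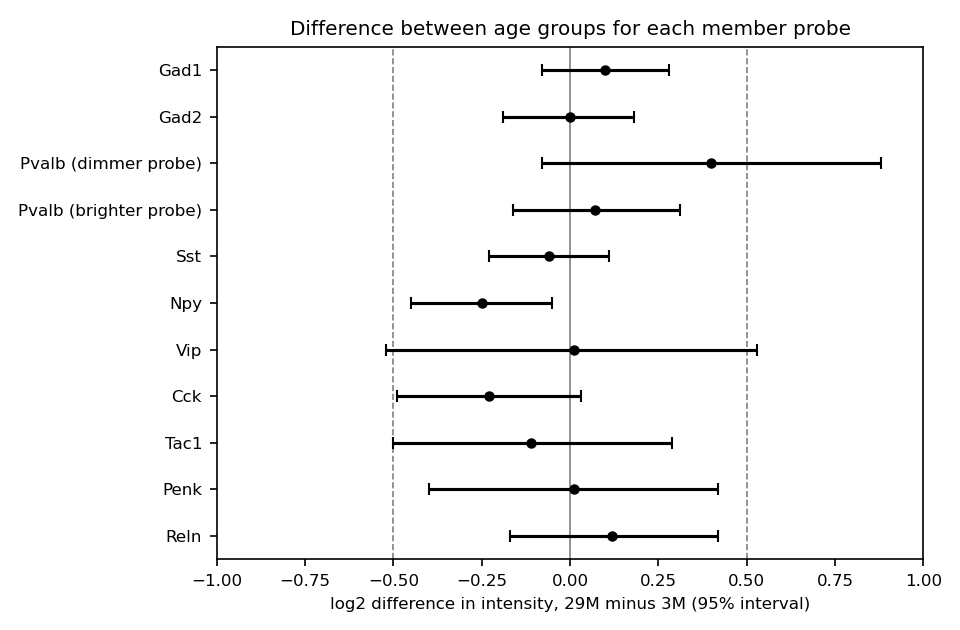
Log2 difference between the age groups (29M minus 3M, horizontal axis) for each member probe, with bars for the 95% interval and dashed lines at the difference of 0.5 in either direction that a call required. The interval of Npy leaves out 0 (-0.45 to -0.05), that of the dimmer Pvalb probe reaches 0.88, and that of Vip passes both dashed lines.

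The 95% interval lay within 0.5 log2 units of 0 for 8 of the 11 probes and for every probe of 7 of the 10 genes. The exceptions were the dimmer probe of Pvalb, Vip and Tac1, whose intervals reached 0.88, 0.53 and -0.50. For these 3 and for Penk, calls would have needed differences of 0.82, 0.90, 0.69 and 0.69, larger than the threshold of 0.5. For the other 7 probes a difference of 0.50 would have been enough.

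The members differed in how far the arrays of 1 age group lay from each other. The SD pooled over both groups was smallest for Sst, 0.07, and only 6.06% of the 28955 probes well above background on all arrays had a smaller one. The decarboxylases came next, with 0.09 each (11.2% of probes smaller for Gad1 and 14.2% for Gad2), and Npy had 0.11 (21.9%). The brighter Pvalb probe, with 0.15, was at the median of all these probes. Values for Cck, Reln, Tac1 and Penk were 0.17, 0.20, 0.26 and 0.30. The most variable were the dimmer Pvalb probe, with 0.36 (92.4% of probes smaller), and Vip, with 0.40 (94.3%). Their 8 arrays spanned 1.37 and 1.07 log2 units, against 0.21 for Sst. The Sst values were averages of 10 spots per array and those of the other members came from single spots. The spread of Sst was therefore not measured as theirs was.

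**Figure D3:**
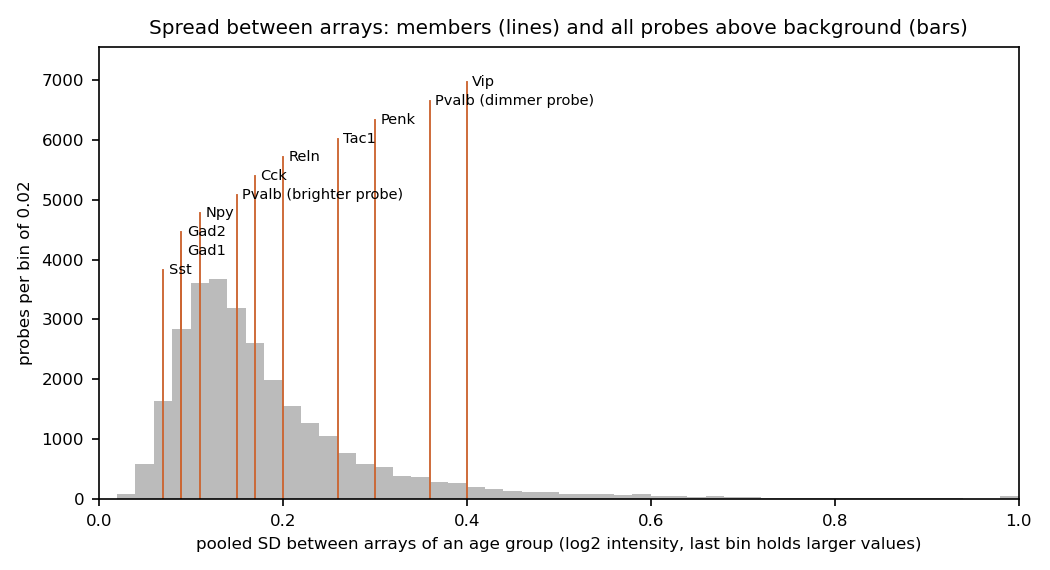
Histogram of the SD between arrays pooled over both age groups (horizontal axis, log2 intensity) for the 28955 probes well above background on all arrays, counted per bin of 0.02 (vertical axis). Vertical lines mark the member probes, their heights only separate the names, and the members run from Sst at 0.07 to Vip at 0.40, on both sides of the median of 0.15. Sst is an average of 10 spots per array, and the other members are single spots.

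There were 3 slides, each with both ages. Slide 1 carried replicate 1 of 3M with replicates 3 and 4 of 29M, slide 2 carried replicate 2 of each age, and slide 3 carried replicates 3 and 4 of 3M with replicate 1 of 29M. Npy was lower in 29M on each slide, with log2 differences of -0.13, -0.28 and -0.25 on slides 1 to 3. Cck was also lower on each (-0.11, -0.15 and -0.36), as was Tac1 (-0.18, -0.13 and -0.16). Vip too was lower within each slide (-0.23, -0.06 and -0.08) although its difference over all arrays was 0.01. Within slides the dimmer Pvalb probe was higher in 29M by 0.46, 0.20 and 0.25, and Reln by 0.05, 0.12 and 0.37. Gad2, the brighter Pvalb probe, Sst and Penk took both directions, from 0.22 on slide 1 to -0.33 on slide 3 in the case of Penk. Gad1 differed by 0.14, 0.04 and 0.00. These are differences between 1 or 2 arrays per age and carry no test.

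**Figure D4:**
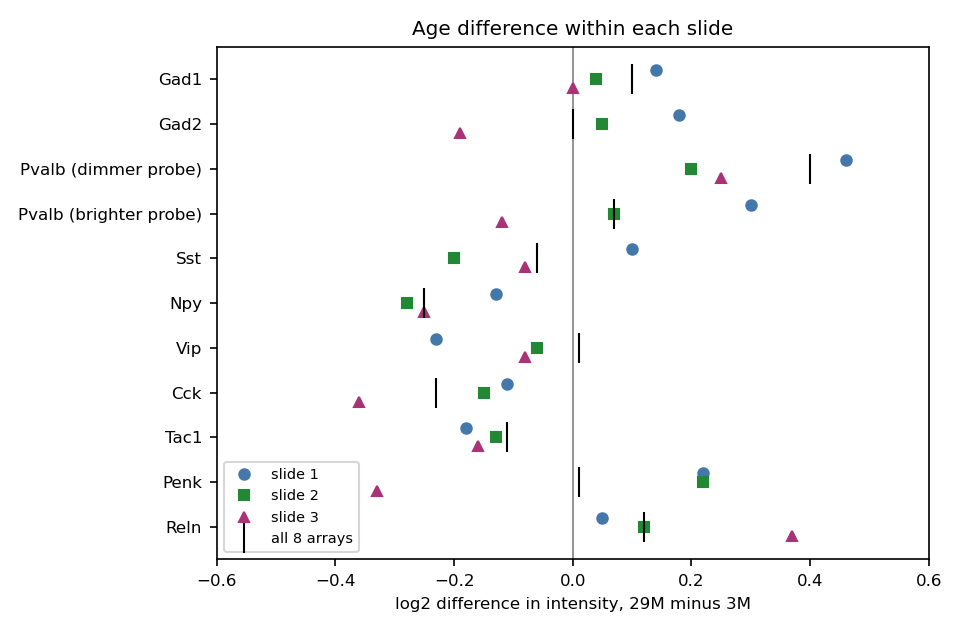
Log2 difference between the age groups (29M minus 3M, horizontal axis) of each member probe within each of the 3 slides (coloured markers) and over all 8 arrays (black bars). All 3 markers lie below 0 for Npy, Vip, Cck and Tac1 and above 0 for the dimmer Pvalb probe and Reln.

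Genes that act with the members were taken as 9 lists with 126 genes, among them some of the members themselves. Of these genes 4 were called on at least 1 probe (3.17%), 2 higher and 2 lower in 29M, while 2.66% of all genes were (2.22% by the brightest probe alone). Among transcription factors that specify interneurons none of 18 was called by limma, 1 had an unadjusted p under 0.05, and the median difference was 0.01. Lhx6, which specifies Pvalb and Sst cells, differed by 0.24 on 1 probe (limma adjusted p 0.332) and by -0.05 on its brightest, and its other probe was not well above background on any array.

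Slc6a11, the GABA transporter GAT3 of astrocytes, was the only gene called among 8 genes of GABA synthesis, packaging and clearance, a list whose median difference was 0.00. The arrays of Slc6a11 gave 10.58, 11.70, 11.34 and 11.60 in 3M and 10.35, 9.25, 10.05 and 9.03 in 29M. The groups did not overlap, although replicate 1 of 3M lay close to replicate 1 of 29M. The transcript fell by 1.63 on the log2 scale (SE 0.33, 95% interval -2.37 to -0.90, limma adjusted p 0.0467) on its only probe. This call was kept in 10 of 17 alternative settings and lost when replicate 2, 3 or 4 of 3M or replicate 2 or 4 of 29M was left out (differences of -1.42 to -1.62, limma adjusted p 0.103 to 0.137). It was also lost with the 75th percentile scaling (-1.72, 0.109) and in 1 further setting.

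None of 23 other subtype markers was called by limma (median difference -0.06), and 9 had an unadjusted p under 0.05 on at least 1 probe. That is a count of genes on any of their probes. The 17.0% given for the array is a share of single probes and cannot be set against it. The lowest p-values were those of Crhbp and Ndnf. Crhbp, the corticotropin-releasing hormone binding protein found in many Sst cells, lay between 12.59 and 12.74 in 3M and between 12.93 and 13.18 in 29M. Its difference of 0.42 (SE 0.08, limma adjusted p 0.0392) was below the 0.5 that a call required. Ndnf, which marks neurogliaform cells, lay between 9.11 and 9.43 in 3M and between 8.78 and 9.02 in 29M, a difference of -0.43 (SE 0.09, limma adjusted p 0.0628) that was also below the required size. With the 75th percentile scaling of processed signals, Ndnf passed both thresholds (-0.51, limma adjusted p 0.0485). It was not called in the other 16 alternative settings, with a limma adjusted p of up to 0.178 (replicate block). Crhbp was called in none of the 17, with a limma adjusted p of up to 0.158 (replicate block). The groups did not overlap for Crhbp or Ndnf, as for 11.1% of all probes, and both were chosen for their low p-values. The same probe of Ndnf is also in the Cajal-Retzius marker list, and Calb1 of these 23 is also in the dentate granule cell list. Their values cannot tell these cell types apart.

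Perineuronal nets are the lattices of proteoglycans, tenascin-R and link proteins that surround mainly Pvalb cells. Of 8 genes 1 was called, Hapln2, and 3 had an unadjusted limma p under 0.05 on at least 1 probe. By value 4 were higher and 4 lower in 29M, and the median difference of the list was -0.04. The arrays of Hapln2 gave 9.89, 10.12, 9.94 and 10.34 in 3M and 11.11, 11.05, 10.92 and 11.17 in 29M, without overlap. Hapln2 rose by 0.99 (SE 0.11, 95% interval 0.74 to 1.24, limma adjusted p 0.00443), or 1.99-fold, and was called in all 17 alternative settings. Its product is the link protein of the matrix at nodes of Ranvier in white matter, a site other than the nets around Pvalb cells. The 6 oligodendrocyte markers were all higher by value in 29M (0 called by limma, 3 at an unadjusted p under 0.05 on at least 1 probe). Their list mean was 14.69 to 15.08 in 3M and 15.05 to 15.22 in 29M. Their part in the rise of Hapln2 was not tested.

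Among 26 other neuropeptide and related secreted precursors, Avp (vasopressin) was the only one called, and the list had a median difference of -0.01. Of the 26, 6 had an unadjusted limma p under 0.05 on at least 1 probe. Avp gave 7.63, 7.45, 7.46 and 7.89 in 3M and 8.22, 7.98, 8.80 and 8.14 in 29M. The groups were separate by a narrow margin. Avp rose by 0.68 (SE 0.18, 95% interval 0.28 to 1.07) at a limma adjusted p of 0.0979, just past the threshold, and the call was kept in 4 of 17 alternative settings. Of the 8 arrays, replicate 1 of 3M was the only one that could be left out without losing the call (limma adjusted p 0.101 to 0.236 without any of the others).

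Of the machinery that stores and cuts peptide precursors, none of 7 granins and none of 11 processing enzymes was called by limma, with 2 and 5 at an unadjusted p under 0.05 and median differences of 0.02 and 0.06. Scg5, the chaperone of the convertase Pcsk2 and a member of both lists, was 16.26 to 16.50 in 3M and 16.65 to 16.88 in 29M (difference 0.42, limma adjusted p 0.0548). Chga, chromogranin A, was 15.40 to 15.46 in 3M and 15.04 to 15.20 in 29M (difference -0.28, limma adjusted p 0.0922). The protease gene Ctsl was 15.17 to 15.52 in 3M and 15.53 to 15.62 in 29M (difference 0.28, limma adjusted p 0.163). In these 3 genes the groups did not overlap, as for 11.1% of all probes, and each difference was smaller than 0.5. All 3 were chosen for their low p-values.

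None of 22 receptors for the products of the members was called by limma (median difference -0.00), and 3 had an unadjusted p under 0.05. Sstr2, a receptor for somatostatin, gave 8.43, 9.03, 9.04 and 8.71 in 3M and 8.36, 8.37, 8.32 and 7.93 in 29M. Its groups were separate, as for 11.1% of all probes, and the difference was -0.56 (SE 0.16, limma adjusted p 0.122). It was chosen for its low p-value. Sstr2 was called in 2 of 17 alternative settings, without replicate 1 of 3M (-0.68, limma adjusted p 0.0314) and with normexp and quantile normalization (-0.54, 0.0935). Cckbr, the main cholecystokinin receptor of the brain, differed by -0.61 on its dimmer probe (limma adjusted p 0.175) and by 0.01 on its brighter one. In the reelin pathway, with a median of -0.02, 4 of 11 genes had an unadjusted limma p under 0.05 on at least 1 probe, and 1 was called. This was Pafah1b1, the gene of the dynein regulator LIS1, which gave 16.23, 15.94, 15.93 and 16.08 in 3M and 15.26, 15.41, 15.69 and 15.63 in 29M. It fell by 0.55 on the log2 scale on this probe (SE 0.12, limma adjusted p 0.0545), whereas its other, dimmer probe differed by 0.09 (limma adjusted p 0.755). The call of Pafah1b1 was kept in 9 of 17 alternative settings and lost without replicate 1, 2 or 4 of 3M or replicate 1 or 2 of 29M (limma adjusted p 0.0631 to 0.144, with differences of -0.48 and -0.47 when replicate 1 of 3M or 29M was absent).

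**Figure D5:**
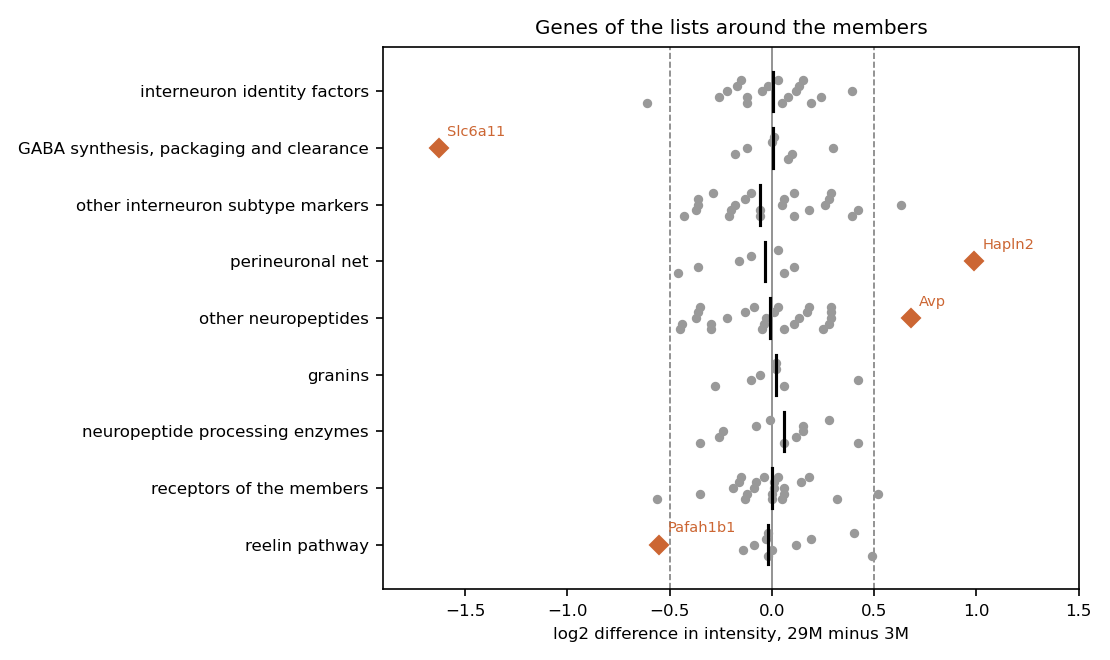
Log2 difference between the age groups (29M minus 3M, horizontal axis) of the genes in each of the 9 lists, 1 point per gene on its brightest probe, with black bars for the median of each list and dashed lines at 0.5 in either direction. The 4 called genes are shown as labelled diamonds, from Slc6a11 at -1.63 to Hapln2 at 0.99, while the medians lie between -0.06 and 0.06.

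Marker lists placed the members in their tissue. None of the 10 general neuronal markers was called by limma, and 0 had an unadjusted p under 0.05. Of 8 excitatory neuron markers 0 were called by limma and 2 had an unadjusted p under 0.05 on at least 1 probe. Among these Nrgn, the calmodulin-binding protein neurogranin, lay between 16.46 and 16.85 in 3M and, without overlap, between 15.78 and 16.35 in 29M, a difference of -0.53 (SE 0.14, limma adjusted p 0.101). Nrgn was picked from the list for its low p-value, and groups did not overlap for 11.1% of all probes. On their brightest probes 3 of the 8 excitatory markers were higher by value and 5 lower in 29M, with a median difference of -0.08. The mean level of 11 interneuron markers, which include 6 members, was 13.45 to 13.63 in 3M and 13.44 to 13.60 in 29M. By value 3 of these 11 were higher and 8 lower in 29M, with a median difference of -0.06 and 0 called by limma. Of the 7 dentate granule cell markers 0 were called by limma and 2 had an unadjusted p under 0.05. All 7 microglial markers were higher by value in 29M, with a median difference of 0.36, and C1qa was called (0.85, limma adjusted p 0.0137). Of the microglial markers 6 had an unadjusted limma p under 0.05 on at least 1 probe. On their brightest probes Cx3cr1 and Aif1 had an unadjusted limma p of 0.0723 and 0.238. Of 6 astrocyte markers 2 had an unadjusted p under 0.05 and Gfap was called (0.71, limma adjusted p 0.0224). The part of these excitatory and glial markers in the values of the members was not tested.

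The genes whose level followed each member most closely over the arrays were sought among 15921 genes, as a description with no test. For Npy these were the histone gene H2ac4 and Sstr2 (Pearson r 0.99 each, 8 arrays), and for Cck they were Mfsd2b (0.99) and Ndor1 (0.98). Sst was nearest to Sms (0.96) and Pgap3 (0.95), Gad1 to Apoh (0.98) and Uchl5 (0.96), and Gad2 to Ralb (0.96) and Sac3d1 (0.92). For the brighter Pvalb probe they were Esrrg and Srrm4 (0.94 each), for Vip they were Tcp1 (0.98) and Myh2 (0.97), and for Penk they were Rab18 (0.98) and Tcerg1l (0.96). Reln was nearest to Gm13315 (0.95) and Cyp2u1 (0.94). Tac1, over 7 arrays, was nearest to Olfr560 (0.99) and Dusp23 (0.98). The points of each pair share arrays, slides and normalization.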

How the data were processed

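Hippocampal RNA of 4 samples of 3M and 4 of 29M was analysed, 1 array each, grouped and numbered by sample title. The authors deposited scanner intensities of each array, linear and without normalization between arrays, which per the file headers came from Agilent Feature Extraction 10.7.3.1. That version, the scanner and the array design differ from those named in the study's methods, and the headers were followed. The planned mean spot intensity was not among the columns used here, so the median took its place. In the deposited series table, all 8 columns of intensities were the mean local background of some array (tolerance 0.001), which for 7 columns was that of another sample. Column medians were 26.7 to 34.8, scale, centring and direction of expression remained unknown, and the table was not used.

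Control spots and outlier spots (127 to 190 per array) were left out. Of the non-control spots 76.2 to 85.0% per array were well above background. Variance stabilising normalization (1 offset and scale per array, least trimmed squares at quantile 0.9, 7 iterations, then a generalized log2, which understates changes of dim probes) was written for this purpose in R 4.3.3, since the original package was not installed. Replicate spots (10 for each of 399 probes) were averaged. For each of 39408 probes measured on no fewer than 3 arrays of each group, age was the one term of a linear model in limma 3.58.1 with eBayes, and p-values were adjusted by Benjamini-Hochberg. The steps were tested on simulated data.

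Accessions in the files matched RefSeq genes of GRCm38.p6 for 26059 of 39429 probes (66.1%). The array was designed on another build (mm9), so no probe coordinates are given. Named were every member with all its probes, of each list the called genes or, where none was called, the 2 with the lowest p, and the 2 genes most correlated with each member. One gene that this rule names is not reported here. The value of a gene is that of its brightest probe unless stated. The members and lists were chosen with earlier results of these data known. The alternatives were log2 processed signal minus the 75th percentile, normexp (offset 50) with quantile normalization, variance stabilisation of the processed signal, outlier spots kept, only probes well above background, a block for slide (fixed or random) or for replicate number, a robust prior with an intensity trend, and each array left out.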

Additional observations from a re-analysis of the deposited data

Results flagged for a closer look

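Cck in replicate 3 of 3M (18.47) stood apart from the other 3 arrays of 3M, which lay between 17.99 and 18.03: its gap to the nearest was 0.922 of the range of the group. Of 21 groups of 4 arrays examined among the member probes this was the only one so marked, and about 1 in 20 (1.05 groups here) is marked by chance. The next largest gaps, of Tac1 in replicate 3 of 29M (0.808) and of the brighter Pvalb probe in replicate 3 of 3M (0.765), stayed below the limit.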

How the results depend on the processing

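No member was called in any of the 17 alternative settings, and Gad1, Pvalb (brighter probe), Sst, Npy, Cck and Reln kept their direction in all 17. Npy ranged from -0.30 to -0.16 (limma adjusted p 0.0857 to 0.42) and Cck from -0.27 to -0.11 (0.284 to 0.587). Gad1 ranged from 0.05 (29M replicate 4 left out) to 0.17 (variance stabilisation of the processed signal), Pvalb from 0.03 (3M replicate 1 or 29M replicate 4 left out) to 0.17 (3M replicate 3 left out), Sst from -0.10 (3M replicate 1 left out) to -0.03 (3M replicate 2 left out), and Reln from 0.03 (29M replicate 1 left out) to 0.24 (29M replicate 4 left out, limma p 0.0435, adjusted 0.344). Tac1 kept its direction in the 14 settings that could be fitted, from -0.01 (variance stabilisation of the processed signal) to -0.26 (29M replicate 3 left out, limma p 0.0617, adjusted 0.305). It could not be fitted without replicate 1, 2 or 4 of 3M, which left too few arrays. The direction of 3 genes near 0 turned. Gad2 was 0.00 with variance stabilisation of the processed signal, 0.01 with slide as a fixed block, and from -0.05 to 0.03 with arrays left out in turn. Vip was -0.00 with normexp, -0.13 with slide as a fixed and -0.01 as a random block, and from -0.19 to 0.16 with arrays left out. Penk was -0.00 with normexp, and from -0.15 to 0.12 with arrays left out. The cause of these turns was not tested.

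The number of list genes called, 4, was 2 with the 75th percentile scaling, 2 with variance stabilisation of the processed signal, and between 1 and 6 with arrays left out. Leaving out replicate 2 or 4 of 3M or replicate 2 of 29M gave 1, and leaving out replicate 3 of 3M or replicate 1 or 4 of 29M gave 2. The call of Slc6a11 was lost without replicate 2, 3 or 4 of 3M or replicate 2 or 4 of 29M (limma adjusted p 0.103 to 0.137), that of Avp with any array but replicate 1 of 3M left out (0.101 to 0.236), and that of Pafah1b1 without replicate 1, 2 or 4 of 3M or replicate 1 or 2 of 29M (0.0631 to 0.144, with differences of -0.48 and -0.47 when replicate 1 of 3M or 29M was absent). Over all probes, the 772 calls ranged from 394 (3M replicate 2 left out) to 1386 (3M replicate 1 left out). Same-numbered arrays deviated from their group means with r of -0.33, 0.29, -0.31 and 0.11, so the numbers were not taken as a pairing. With the replicate block 434 probes and 1 list gene were called (Slc6a11, Avp and Pafah1b1 were not, limma adjusted p 0.155, 0.186 and 0.166), Tac1 was -0.26, Npy was -0.25 (limma adjusted p 0.31), and no member call changed. With 4 arrays per group (3 of 3M for Tac1), differences below 0.90 for Vip and 0.82 for the dimmer Pvalb probe could not have been called. For Tac1 and Penk this held below 0.69.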
